A study of Caenorhabditis elegans with 2 samples.

Results

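The genes of the mRNA export machinery whose loci were examined here number 10: the 3 Aly/REF family genes aly-1, aly-2 and aly-3, the helicase gene hel-1, the export receptor genes nxf-1, nxf-2 and nxt-1, and the THO genes thoc-1, thoc-2 and thoc-5. They were chosen by name, out of 19973 annotated protein-coding genes. A peak was counted for a gene when its summit lay from 1000 bp upstream of the annotated 5′ end to 500 bp past the 3′ end. The signal came from ChIP-seq of ALY-1 itself. Early embryos of Caenorhabditis elegans hermaphrodites, strain OP502, were taken 0 hours after synchronisation by bleaching of eggs, and the immunoprecipitation used an antibody to GFP according to the description, although the antibody label names aly-1. The labels give whole organisms as the material, so signal of all embryonic cells is mixed. Both biological replicates carry unc-119(tm4063) on chromosome III and the transgene wgIs502, which supplies ALY-1 with GFP and FLAG at its C terminus. There is 1 group, both replicates share a control alignment, and no list from worms without the transgene was used here. Each of the 3 lists used (replicate 1, replicate 2 and both pooled) holds 30000 candidate peaks, background included, each with the signal value that the authors' peak caller gave it. Peaks were ordered by that value within each list, with rank 1 the strongest, and values were not compared between lists. Of the pooled peaks, 881 passed the authors' irreproducible discovery rate (IDR) procedure and are called thresholded. Read depth is unknown.

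Messenger RNA leaves the nucleus bound to export factors that are loaded while it is transcribed and spliced. The THO complex and a UAP56-type DEAD-box helicase bring Aly/REF adaptors onto the transcript, and the adaptors hand it to the NXF1-NXT1 export receptor, which passes through the nuclear pore. Aly/REF proteins bind RNA and other proteins, so crosslinked DNA can be recovered with them without direct contact. The lists show where signal of ALY-1-GFP lay along its own gene and along the genes of its partners.

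Of the 10 genes, 9 had at least 1 pooled candidate summit, 25 summits in all, and 1 gene, aly-1, had a thresholded peak. Of all protein-coding genes 60.1% had a pooled candidate summit in the same window and 4.03% a thresholded one, and a single gene among 10 cannot be set apart from that background. The summits lay at 0.581 per kb of window, against 0.329 per kb over the windows of all protein-coding genes and 0.299 per kb of genome. The median window was 3394 bp for the export genes and 3527 bp for all genes. The best-ranked summit was within the strongest 5000 for 4 of the 10 genes (aly-1, hel-1, aly-3 and thoc-2), and for 18.4% of all protein-coding genes. The −log10 q-value was 2.45 at the thresholded aly-1 peak. At the other export gene peaks within the strongest 5000 it ran from 0.82 (thoc-2) to 1.34 (hel-1). At those ranked lower it was at most 0.732, so most of these candidates have weak q-values. Below, strong refers to the rank in a list only. The median best rank of the 9 genes with a peak was 8242 in the pooled list, where that of all genes with a peak was 9460. In replicate 1 alone the median of the export genes was 2933, and in replicate 2 alone 8827.5. Each of these covers the 8 genes with a peak in that list, without nxf-2 in replicate 1 and without nxf-1 in replicate 2. The median over all genes was not taken in either replicate list, so these values have no background beside them. Candidates in both replicates were found at 7 of the 10 genes, and at 50.2% of all protein-coding genes. No test was made on these counts, because the genes are few and were chosen with earlier results of these data known.

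**Figure D1:**
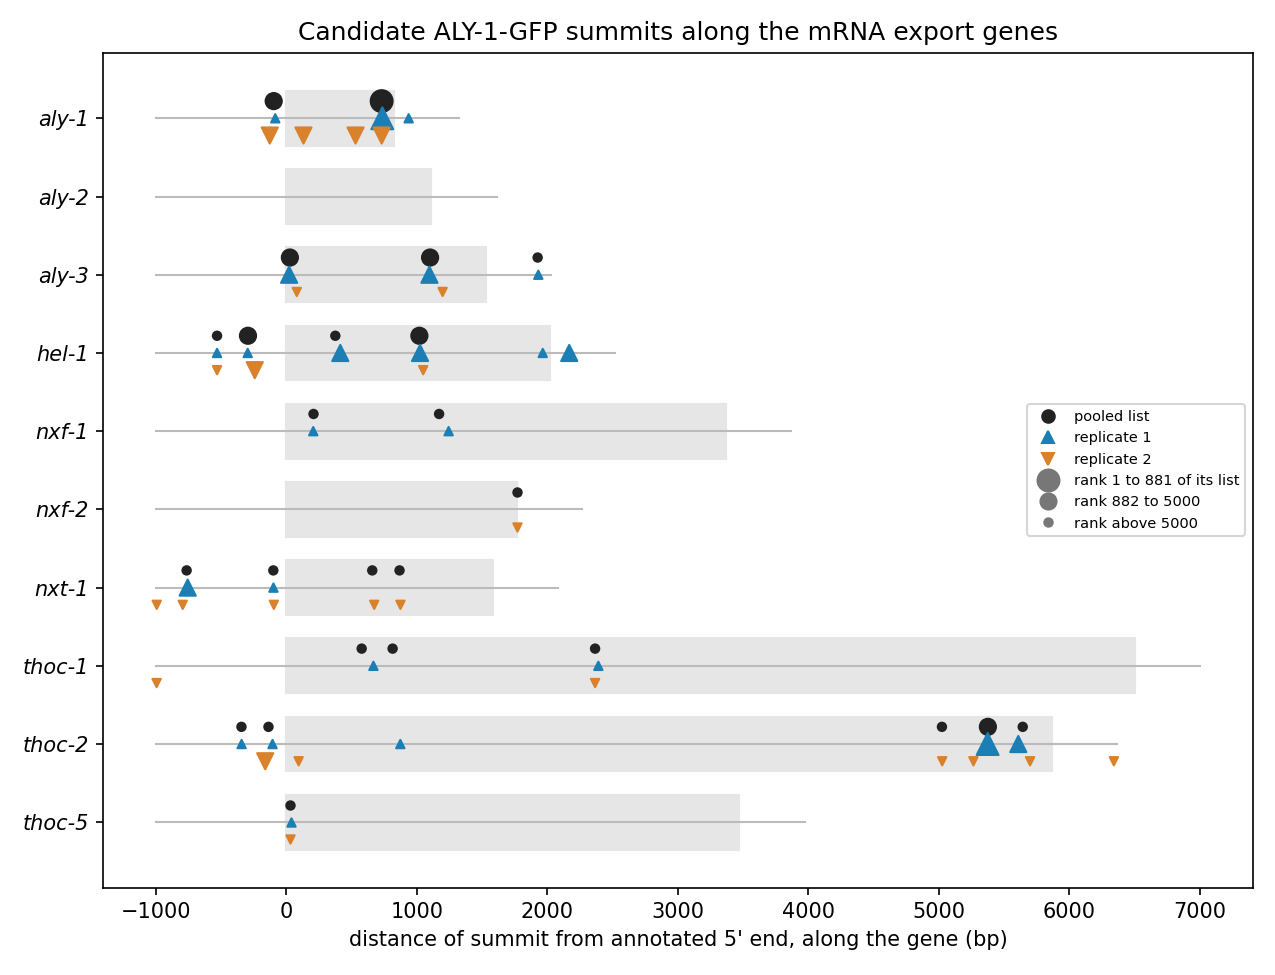
Summits of candidate ALY-1-GFP peaks along each of the 10 genes (grey boxes, from 5′ to 3′ end; lines, the flanks included), in bp from the annotated 5′ end, for the pooled list and each replicate; large symbols mark ranks 1 to 881, middle-sized ones ranks up to 5000. The pooled aly-1 summit near its 3′ end has rank 427, while aly-2 has no summit in any list.

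The ALY family showed the widest range of ranks. The gene aly-1 (WBGene00000120, IV:9108931-9109753, plus strand, ce11) held 2 pooled summits. The stronger, at IV:9109420-9109903, had a signal value of 106 and rank 427, where the thresholded peaks of the genome ranged from 85.5 to 643. In replicate 1 the peak there had a signal of 48.5 and rank 459, and in replicate 2 a signal of 42.6 and rank 1737. It was therefore among the strongest 881 peaks of replicate 1 but not of replicate 2. Of all protein-coding genes 2.09% had a better best pooled rank than aly-1.

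The stronger aly-1 summit lay at the last codons of the gene, 731 bp from the 5′ end and 2 bp before the annotated stop codon. The summit in replicate 2 was at the same base, and the one in replicate 1 was 3 bp past the first base of the stop codon. The label of the strain places the GFP and FLAG tag at the C terminus, which is where the coding sequence of the transgene meets the tag. Whether the tag bears on the position of the summit was not tested. The last 120 coding bases of aly-1 and its stop codon, in capitals, are shown because the summit falls on them, with the same stretch of aly-2, where no list had a peak (both IV, ce11, plus strand, 5′ to 3′, RefSeq assembly WBcel235).
aly-1, IV:9109544-9109666: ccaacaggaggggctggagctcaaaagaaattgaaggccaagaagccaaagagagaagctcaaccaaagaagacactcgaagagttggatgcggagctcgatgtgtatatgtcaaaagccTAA
aly-2, IV:9148362-9148484: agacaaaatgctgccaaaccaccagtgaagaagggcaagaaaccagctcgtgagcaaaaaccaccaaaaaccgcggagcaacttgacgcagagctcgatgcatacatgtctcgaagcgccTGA

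Few genes had a summit this close to a stop codon. With pooled candidates at 0.299 per kb of genome, few stretches this short hold a summit wherever they lie. Of 19865 protein-coding genes with an annotated stop codon, 55 (0.277%) had a pooled candidate summit within 5 bp of one, and aly-1 was the 1 gene with a thresholded summit that close. Within 25 bp the count of genes with a thresholded summit was 9, and within 50 bp it was 14. Among the other export genes, the pooled summit nearest to a stop codon lay 86 bp away, at thoc-2, and the farthest 3200 bp away, at aly-2. In the replicate lists the nearest was again at thoc-2, 120 bp away in replicate 1 and 30 bp in replicate 2. The distance limits were chosen after the position of the summit was seen, so these values describe it and do not test it. The counts were not set beside those for other positions in genes, so they do not mark the aly-1 summit as unusual. Reads from transgene copies of aly-1 and from the chromosomal gene cannot be told apart in these lists.

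The sequence around the stronger aly-1 summit differed from that of most thresholded peaks. The 201 bp centred on it were 34.3% G and C, and 0.795% of the 881 thresholded summits had a lower content. The median of the thresholded summits was 49.8%, that of all pooled candidates 42.3%, and the genome as a whole 35.4%. Summits of the 25 export gene peaks ranged from 32.8 to 55.2%, with a median of 40.8%.

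The weaker aly-1 summit lay 96 bp upstream of the 5′ end (IV:9108593-9109076) with a signal of 57.8 and rank 3397. Here the order of the replicates turned. The overlapping peak ranked 8785 in replicate 1 and 2097 in replicate 2, with signal values of 20.7 and 40.5. The replicate 2 peak has its summit inside the gene, and its nearest upstream summit ranked 2413. Replicate 2 had 4 summits across the gene, at ranks 1737 to 2413, while replicate 1 had 3, the weaker ones at ranks 7467 and 8785. Replicate 2 thus had peaks of similar rank along the whole gene, and replicate 1 had 1 strong peak at the stop codon. No other annotated gene reached into the aly-1 window. The 61 bp at this upstream summit (its centre in capitals) are given to show the promoter side of the gene.
aly-1 upstream, IV:9108805-9108865: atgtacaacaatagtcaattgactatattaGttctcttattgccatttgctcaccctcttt

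The number of candidate peaks around aly-1 was within the range of other genes. Within 50 kb on either side of its 5′ end the pooled list had 20 summits, against a median of 29 around all protein-coding genes (5th to 95th percentile 8 to 51), and the replicates had 32 and 30. Within 20 kb the pooled count was 13 (median 11), and replicates 1 and 2 had 20 and 19 (median 11 in each). Within 5 kb the pooled count was 4, which 36.6% of genes reach. Replicates 1 and 2 had 4 (37.1%) and 7 (9.16%) there. No other thresholded peak lay within 50 kb. The next strongest pooled peak there, at nrfl-1 13.024 kb from aly-1, had a signal of 79.3 and rank 1125. The other 17 pooled summits in this stretch had signal values from 23.7 to 46.9. The extent of the genomic insert in wgIs502 is not given in the sources used here, so which of these peaks lie in duplicated sequence is unknown.

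**Figure D2:**
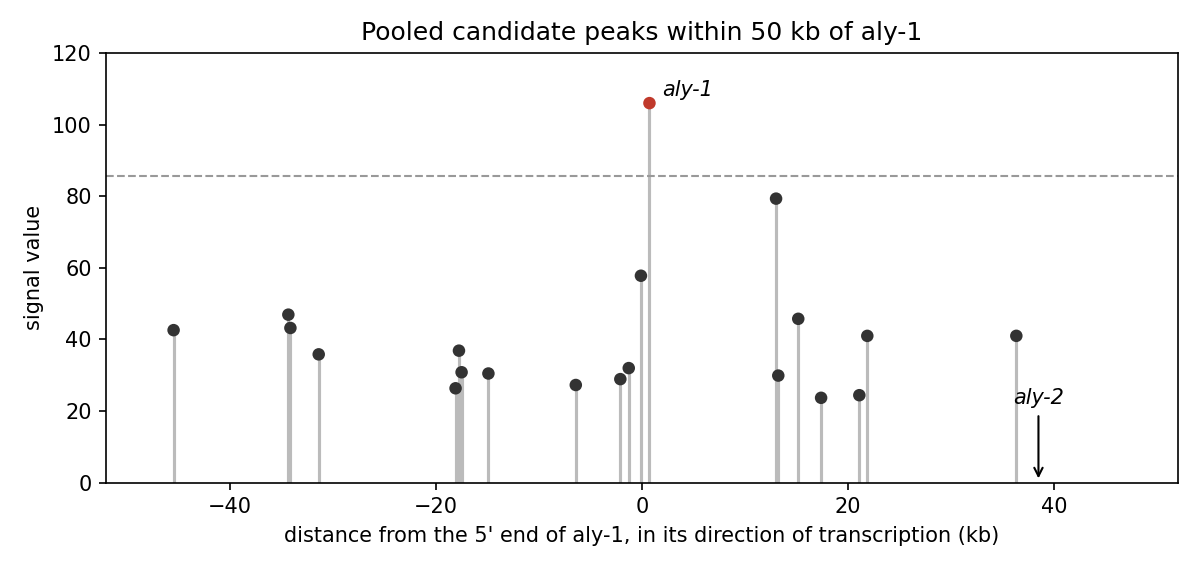
Signal values of the 20 pooled candidate peaks within 50 kb of the 5′ end of aly-1, by distance in kb; the red point is the thresholded peak at aly-1 (signal 106), and the dashed line is the lowest signal of a thresholded peak (85.5). No peak stands at aly-2, 38.5 kb away.

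No list had a candidate summit at aly-2 (WBGene00000121, IV:9147468-9148579, plus strand), another Aly/REF gene that lies 38.5 kb beyond aly-1. The nearest pooled summit was 2186 bp from the gene and ranked 9196, and the nearest in replicates 1 and 2 were 1945 and 2284 bp away at ranks 24949 and 17572. The absence holds only within the 30000 strongest candidates of each list, whose weakest pooled member had a signal of 22.6. Of the 32-base words in the aly-2 window, 2.32% occur elsewhere in the genome, and in the aly-1 and aly-3 windows 0%. In coding sequence, aly-1 and aly-2 share 65.8% of aligned bases, aly-1 and aly-3 65.7%, and aly-2 and aly-3 69.0%. The read length is not given, so how many reads map to 1 place only is not known.

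The third family gene aly-3 (WBGene00000122, IV:12123282-12124809, plus strand), had 3 pooled summits and stood between its relatives. The strongest, at the 5′ UTR 28 bp inside the gene, had a signal of 60.6 and rank 2899, with overlapping ranks of 1672 and 7981 in replicates 1 and 2. A second, in an intron 1102 bp from the 5′ end, had a signal of 55.1 and rank 3951, with ranks of 2646 and 23513. The last, rank 27491, lay past the 3′ end within the neighbouring gene dhhc-6. Both strong aly-3 peaks thus ranked higher in replicate 1. Within 5 kb of its 5′ end aly-3 had 9 pooled summits, a count that 3.17% of protein-coding genes reach. Replicate 1 had 6 there (reached by 15.4% of genes) and replicate 2 had 10 (1.24%). The intronic summit is printed with its centre in capitals.
aly-3 intron, IV:12124354-12124414: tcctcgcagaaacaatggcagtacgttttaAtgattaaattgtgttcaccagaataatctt

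The gene of the helicase, hel-1 (WBGene00001840, II:8326852-8328870, minus strand), the worm UAP56 homologue that works together with Aly/REF proteins, had 4 pooled summits. The best, in an intron 1020 bp from the 5′ end, had a signal of 63.7 and rank 2463, and of the 10 genes only aly-1 had a better best rank. Overlapping peaks ranked 1109 in replicate 1 (signal 38.1) and 8490 in replicate 2 (signal 26.2). Upstream of the gene, a summit at 293 bp had a signal of 56.8 and rank 3587, with overlapping ranks of 5610 and 2328. A further summit at 530 bp upstream ranked 5293 and coincided with replicate summits of near-equal rank, 7436 and 7621. A coding-exon summit at 376 bp ranked 15230 and was overlapped in replicate 1 alone. As at aly-1, the strongest peak within the gene ranked higher in replicate 1 and the strongest upstream peak in replicate 2.

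All 4 hel-1 summits also lie within C26D10.3, a protein-coding gene on the opposite strand that spans this locus, so the lists cannot assign the signal to either gene. Both strong hel-1 sites are printed on the hel-1 strand, because they are the strongest pooled peaks inside and upstream of the gene. Their G and C content over 61 bp was 62.3 and 54.1%.
hel-1 intron, II:8327820-8327880: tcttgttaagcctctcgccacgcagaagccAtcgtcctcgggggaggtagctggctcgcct
hel-1 upstream, II:8329133-8329193: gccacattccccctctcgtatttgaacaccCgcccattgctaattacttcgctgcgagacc

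THO genes, whose products load the export adaptors, had best pooled ranks from 4682 to 10573. Most summits were at thoc-2 (WBGene00015813, III:6368042-6373904, plus strand), with 5 pooled summits at both ends of the gene. The best lay in a coding exon 5375 bp from the 5′ end and 487 bp before the 3′ end, with a signal of 52.2 and rank 4682. In replicate 1 the peak there had a signal of 42.6 and rank 727, which is among the strongest 881 of that list, and in replicate 2 the best overlapping peak, with its summit 350 bp away, ranked 13351 with a signal of 21.9. The 2 other summits near this end ranked 12552 and 26269. At the 5′ end, pooled summits 136 and 343 bp upstream ranked 8167 and 8847, and there replicate 2 ranked higher (4896 against 22734). The gene C56G2.15, on the other strand, starts 7 bp from the summit at 136 bp, and the region is thus shared by a pair of divergent genes. The best coding-exon summit is printed because its replicate ranks lie farthest apart among the export gene peaks within the strongest 5000.
thoc-2 coding exon, III:6373387-6373447: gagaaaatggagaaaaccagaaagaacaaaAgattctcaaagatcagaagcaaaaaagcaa

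The other THO genes had no candidate within the strongest 10000 of any list. At thoc-1 (WBGene00020172, II:702107-708608, plus strand) 3 coding-exon summits at 578, 815 and 2366 bp from the 5′ end ranked 10711, 15516 and 10573. The best of these was overlapped by peaks ranked 21987 and 10188 in replicates 1 and 2, and the others were overlapped in replicate 1 alone. In the thoc-1 window 9.85% of 32-base words occur elsewhere in the genome. At thoc-5 (WBGene00021311, III:5345931-5349401, minus strand) a single summit, in the 5′ UTR 30 bp inside the gene, ranked 10372 in the pooled list, 16531 in replicate 1 and 15357 in replicate 2. The 3 lists placed it within 3 bp of the same position, and its pooled signal was 39.0.

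Among the genes with a peak, the receptor genes nxf-1 and nxf-2 had the lowest-ranking best peaks of the pooled list. In replicate 1 alone thoc-1 and thoc-5 ranked below nxf-1, and in replicate 2 alone nxt-1, thoc-1 and thoc-5 ranked below nxf-2. NXF-1 is the worm counterpart of the vertebrate export receptor, and nxf-2 is a shorter relative close to it on chromosome V, with the gene C15H11.11 starting between them. At nxf-1 (WBGene00003834, V:14411649-14415014, minus strand) summits 1171 and 209 bp from the 5′ end ranked 12538 and 16474, with replicate 1 ranks of 9779 and 11295 and no overlapping peak in replicate 2. At nxf-2 (WBGene00003835, V:14416067-14417835, minus strand) the only summit, 2 bp past the 3′ end and inside the gene C15H11.11, ranked 14728 in the pooled list and 9674 in replicate 2, with no peak in replicate 1. The coding sequences of this pair share 68.3% of aligned bases, and none of the 32-base words of their windows occurs elsewhere. Candidates are sparser on chromosome V, at 0.220 summits per kb, than on any other chromosome (up to 0.375 on chromosome III).

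The receptor partner nxt-1 (WBGene00003836, I:2929777-2931361, plus strand) had 4 pooled summits. The best, 763 bp upstream and inside the neighbouring gene trap-1, had a signal of 42.8 and rank 8242. In replicate 1 the peak there ranked 4194. In replicate 2 the best overlapping peak ranked 4127 but had its summit 449 bp away, and the peak with the nearest summit ranked 25867. A summit 99 bp upstream ranked 10255, with overlapping ranks of 18380 and 10570, and intronic summits at 659 and 868 bp ranked 16259 and 27842 and were overlapped in replicate 2 alone. Of the words in this window 8.78% occur elsewhere in the genome. No sequence is printed for this gene.

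**Figure D3:**
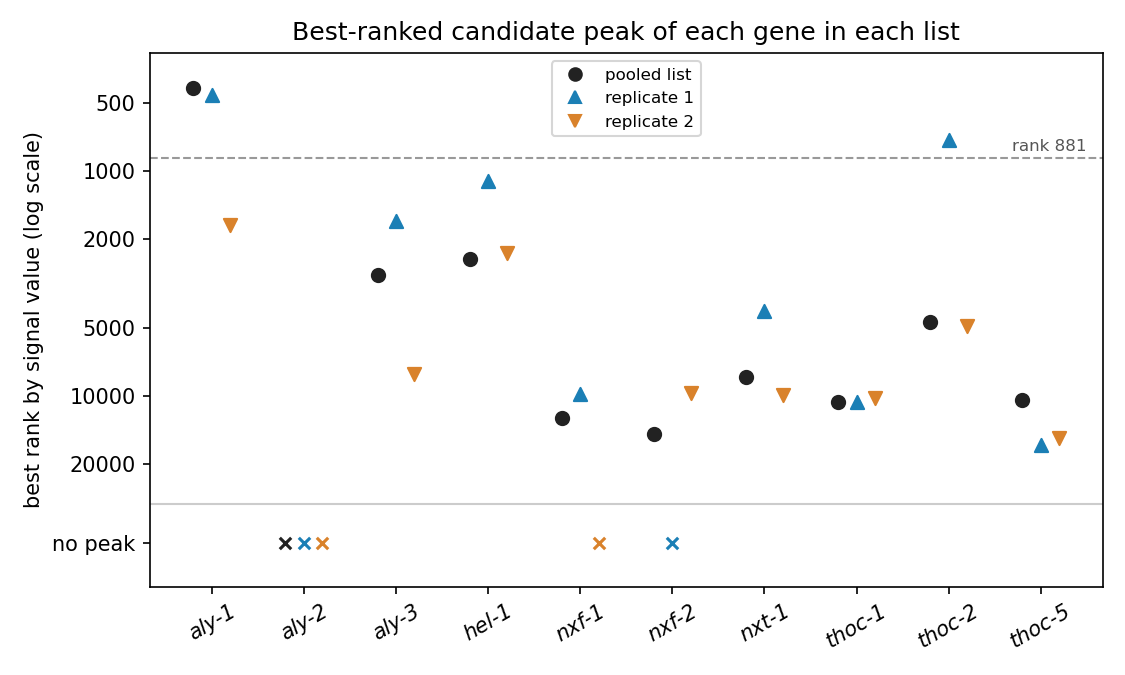
Best rank by signal value (log scale, strong peaks at the top) of each of the 10 genes in the pooled list and in each replicate; crosses mark a list with no summit in the gene's window, and the dashed line is rank 881. Above the line are aly-1 in the pooled list and in replicate 1 and thoc-2 in replicate 1.

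**Figure D4:**
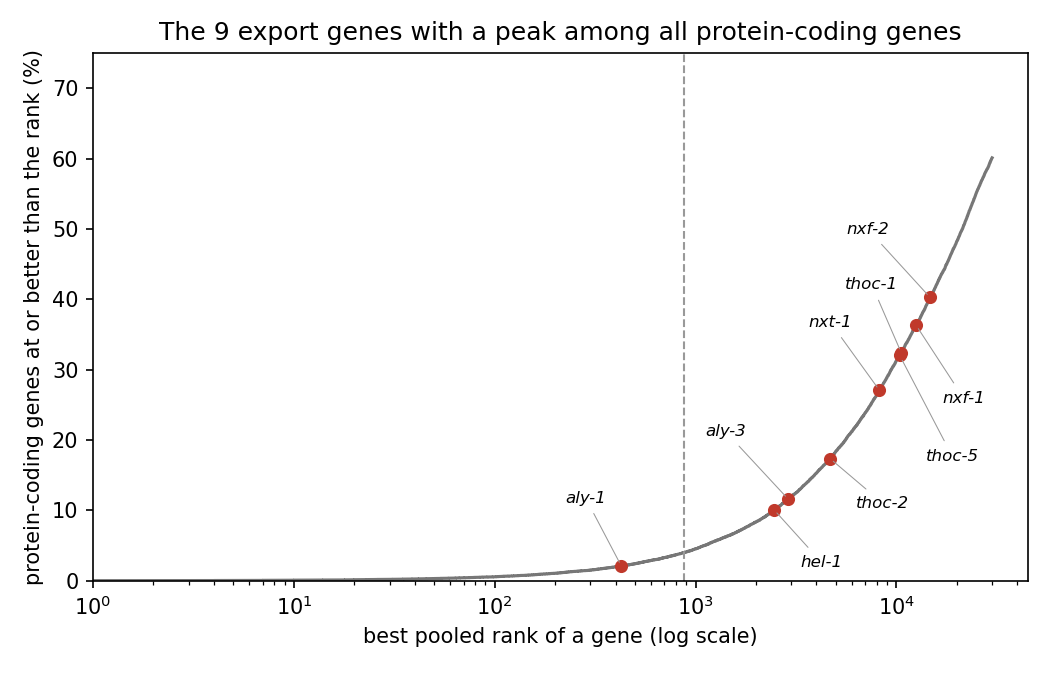
Share of all 19973 protein-coding genes (grey curve, in percent) with a best pooled rank at or better than each rank (log scale); red points are the 9 export genes with a pooled summit, and the dashed line is rank 881. From aly-1 at rank 427 to nxf-2 at rank 14728 the genes spread along the rise of the curve.

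The order of the replicates differed between positions. Of the 25 pooled peaks, 17 were overlapped by a peak in both replicates, 22 in replicate 1 and 20 in replicate 2, and none in neither. Over all pooled candidates 60.8% were overlapped in both. All 7 such peaks upstream of a gene, from aly-1, hel-1, nxt-1 and thoc-2, ranked higher in replicate 2 by their best overlapping peaks. By the overlapping peaks with the nearest summits the count was 5 of 7, and the upstream summits at 763 bp from nxt-1 and 530 bp from hel-1 ranked higher in replicate 1. Of the 9 within gene bodies, 7 ranked higher in replicate 1 by either matching, the exceptions being thoc-5 and the thoc-1 summit at 2366 bp. The 1 peak past a 3′ end, at aly-3, ranked higher in replicate 2.

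Some of these peaks share a replicate peak, so the counts are not independent. The upstream pairs at hel-1 and at thoc-2 each met the same replicate peaks, and the 3 peaks near the 3′ end of thoc-2 met the same replicate 1 peak. Over all pooled peaks the shares by position were nearly equal. Of 11882 pooled peaks within a gene body 49.5% ranked higher in replicate 1, and of 2826 within 1000 bp upstream of a gene and in no gene body 50.5%. Among the strongest 5000 the shares were 45.8 and 48.9%. These classes are unlike those of the export gene peaks, which were placed by their own gene only. The upstream summits at 293 and 530 bp from hel-1, 763 bp from nxt-1 and 343 bp from thoc-2 lie inside another coding gene. In the genome-wide shares they count as gene-body peaks, as does the aly-3 peak inside dhhc-6. The division by position and the matching by nearest summit were chosen after the ranks had been seen.

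The replicate ranks of the strong export gene peaks lay farther apart than the genome-wide median. Of the 7 export gene peaks within the strongest 5000 that were overlapped in both replicates, the median ratio between the replicate ranks was 4.77, from 2.41 at the upstream hel-1 summit to 18.4 at the coding-exon summit of thoc-2. For the 4900 such peaks in the genome the median ratio was 2.47 and the upper quartile 4.73. With the nearest summits the medians were 4.77 for the export genes and 2.72 for the genome, whose upper quartile of 5.46 was then above the export gene median. The ratio at the thoc-2 summit became 32.

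**Figure D5:**
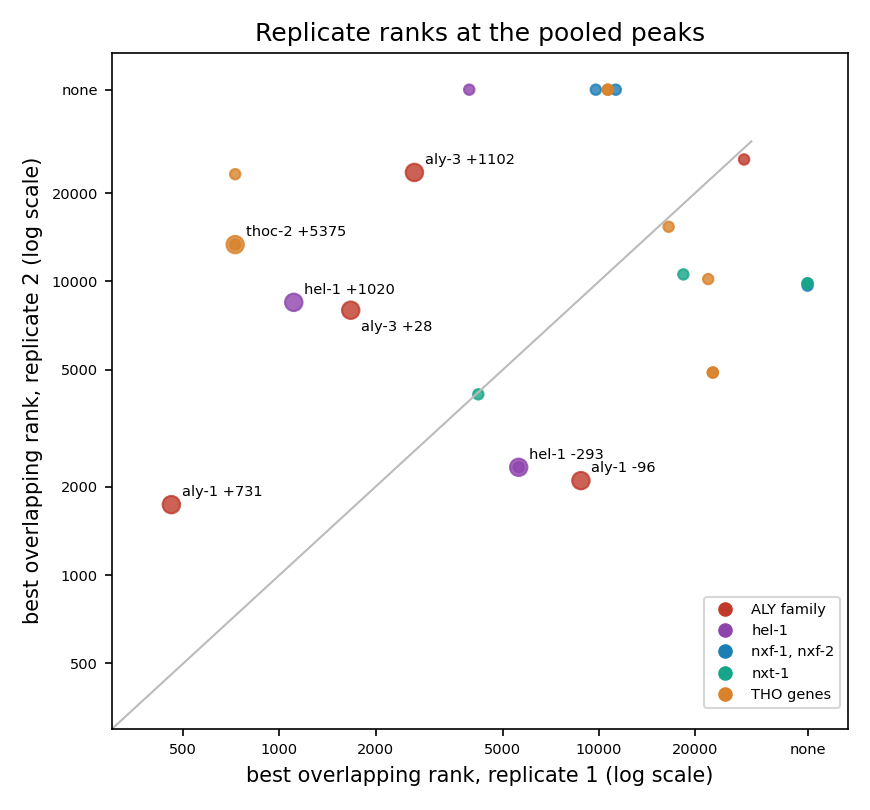
Best rank of the overlapping peak in replicate 1 and in replicate 2 (both log scales) for each of the 25 pooled peaks at the export genes, with "none" where no peak overlapped; large points are within the strongest 5000 pooled peaks and carry the gene and the distance from its 5′ end in bp. Of the 7 large points, 5 lie above the diagonal (better in replicate 1) and 2 below.

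By position, 7 of the 25 pooled summits lay upstream, 2 in 5′ UTRs, 8 in coding exons, 6 in introns, 2 past a 3′ end and 0 in 3′ UTRs. A summit within 300 bp of the 5′ end was found at 7 of the 10 genes (aly-1, aly-3, hel-1, nxf-1, nxt-1, thoc-2 and thoc-5), and at 22.2% of all protein-coding genes. This distance was chosen with the positions known. The density was 0.700 per kb upstream, 0.571 in gene bodies and 0.400 past the 3′ ends, against 0.369, 0.318 and 0.324 for all protein-coding genes. Of the 25 summits 8 lay inside another annotated gene, among them all those of hel-1, inside C26D10.3. The share over the windows of all protein-coding genes is not given here.

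None of the 25 summits lay within 250 bp of a tRNA, snoRNA, snRNA, rRNA or microRNA gene. The share of all pooled candidates that near is not given here, so this count has no background beside it. The closest was 731 bp away, at thoc-2. The box B of tRNA genes, an internal promoter element of RNA polymerase III, was searched for as GTTCGANNC on both strands of the 300 bp around each summit. It occurred at 1 of the 25 export gene summits (the thoc-2 summit ranked 12552), at 18.8% of the thresholded summits and at 3.02% of the other pooled candidates. A match is a run of letters only, and the motif was chosen after earlier results were seen.

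Other genes were looked at from a wider nuclear export list of 32 names, of which 26 matched the annotation. The list was not limited to factors of mRNA export. Their window lengths were not matched to those of other genes. Of these 26 genes, 24 had a pooled candidate summit and 2 a thresholded one, where 60.1 and 4.03% of all protein-coding genes had one. A count of 2 among 26 cannot be set apart from that background. Both were nucleoporin genes, which encode parts of the nuclear pore. At npp-6 the summit 400 bp upstream ranked 715 (signal 91.1; best ranks in replicates 1 and 2 were 1422 and 790) and lay within 250 bp of the gene spd-5. At npp-8 the summit 175 bp upstream ranked 812 (signal 87.8; 565 and 1249). Next came srrt-1, the worm ARS2 homologue, which acts with the nuclear cap-binding complex, with a coding-exon summit of rank 961 (signal 83.0) just below the thresholded set. The median best rank of the 24 genes was 5230, against 8242 for the export genes above and 9460 for all genes with a peak. The cap-binding complex genes ncbp-1 and ncbp-2 ranked 13087 and 15731, and thoc-3 and cids-1 had no summit.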

How the data were processed

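ChIP-seq of ALY-1-GFP in early embryos was deposited as peak lists on ce11 for 2 biological replicates, for both pooled, and as an optimal IDR set. Per the authors' file listings, each replicate was compared with the same control alignment. The signal value is a score of the authors' peak caller, the q-value was deposited as −log10, and the summit is an offset in bp. For the aligner, the peak caller, the IDR threshold and the depth, the entry is: not given in the sources used here. Lists on ce10 were not used. Nothing says that the replicates came from separate cultures beyond their numbers.

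Peaks were ranked by signal within each list and assigned by summit to protein-coding genes of Ensembl release 115 with Python 3.11.15, numpy 2.4.6 and pandas 2.3.3; Biopython 1.88 aligned coding sequences and matplotlib 3.10.9 drew the figures. Assignment was tested on simulated data. Replicate peaks were matched to a pooled peak by an overlap of at least 1 bp, taking the best-ranked. The named genes are the 10 members, genes of a wider export list with a thresholded peak or the 3 best ranks, and neighbours at a summit; nrfl-1, ncbp-1, ncbp-2, thoc-3 and cids-1 were added after their values were seen. The members and lists, the rank limit of 5000, the motif and the G and C window were chosen with results of these data known. No test was made, since 1 group allows no comparison of conditions. Alternatives were other windows, matching rules, stricter lists and single replicates.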

Additional observations from a re-analysis of the deposited data

How the results depend on the processing

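Of the export genes, 9 had a pooled candidate peak and 25 peaks were counted in the window from 1000 bp upstream to 500 bp downstream. Counting summits in gene bodies only gave 16 peaks, and the promoter window (1000 bp upstream to 200 bp downstream of the 5′ end) gave 9 peaks and 0 genes with a thresholded peak, since the aly-1 summit lies at its 3′ end. Leaving out summits that another coding gene holds or is nearer to gave 15 peaks, all those of hel-1 and nxf-2 were lost, and the median best rank moved from 8242 to 10372. Among the stronger 10000 candidates, 11 peaks at 5 genes were left. With one replicate alone, 8 genes had a candidate peak and 24 peaks were counted in either list. The number of genes within the strongest 881 peaks ranged from 0 in replicate 2 to 2 in replicate 1, where thoc-2 joined aly-1. With one replicate alone the median best rank was 2933 in replicate 1 and 8827.5 in replicate 2. Of 63 best ranks of single genes (9 genes under 7 alternatives), 43 stayed within 1.5 times the main rank, 12 moved further, 8 of them with one replicate alone, and in 8 cases the gene had no peak left. Matching replicate peaks by nearest summit, added after seeing the data, left 5 upstream peaks ranking higher in replicate 2. No paired analysis was possible because there is 1 group. Without read depth, a gene with no peak, such as aly-2, is known only to be outside the 30000 candidates of each list.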
